A study of Mus musculus with 18 samples.

Results

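Serpina3c, Serpina3f, Serpina3g, Serpina3k, Serpina3m and Serpina3n are 6 mouse paralogs of the Serpina3 family, chosen by their gene symbols from the gene count tables of a liver RNA-Seq study. All 6 were found in each of the 3 tables, which list 21018 genes between them. Liver was taken from 12-week-old male C57/B6J mice, with no transgene or deletion named in the labels, 4 hours after an intraperitoneal injection of IL-1β at 20 µg/kg (3 mice, here named I9579, I9582 and I9583 after their numbers in the labels) or of saline (3 mice, here U9574, U9575 and U9576). The liver RNA of every mouse went into the Pico kit (stranded total RNA, 1.7 to 2.6 ng), the V4 kit (unstranded poly(A) RNA, 0.8 to 1.3 ng) and the TruSeq kit (stranded poly(A) RNA, 200 ng), which gave 18 libraries, 1 for each mouse in each kit. The counts are sense reads in Pico and TruSeq and reads of both strands in V4, and the study prepared the Pico libraries more than once, with no run named in the labels. The counts of a library summed to between 4024632 and 4134070 in Pico, between 12013453 and 12352473 in V4 and between 12348864 and 12858237 in TruSeq.

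Serpins are protease inhibitors that act as suicide substrates: the protease cuts an exposed reactive centre loop near the carboxy end of the serpin and is then trapped. Humans carry a single SERPINA3 gene, which encodes the acute-phase plasma protein alpha-1-antichymotrypsin, whereas in the mouse this gene has been duplicated into a cluster whose members differ most in the loop that meets the protease. The liver is the main source of these plasma inhibitors, and hepatocytes answer inflammatory cytokines such as IL-1β by changing the set of plasma proteins they secrete, the acute-phase response. Serpina3n is the closest mouse counterpart in function and is an inhibitor of granzyme B and of neutrophil proteases. Serpina3k is a plasma inhibitor known for binding tissue kallikrein, and Serpina3g is known as an inhibitor of lysosomal cysteine cathepsins in immune cells.

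The 6 genes lie within 267.948 kb of chromosome 12 in mm9, the build of the count tables. Going along the chromosome they are Serpina3c (ENSMUSG00000066361, chr12:105384592-105392080, minus strand), Serpina3f (ENSMUSG00000066363, chr12:105452754-105459339), Serpina3g (ENSMUSG00000041481, chr12:105474455-105480149), Serpina3k (ENSMUSG00000058207, chr12:105576696-105583951), Serpina3m (ENSMUSG00000079012, chr12:105625374-105632467) and Serpina3n (ENSMUSG00000021091, chr12:105644939-105652539), the last 5 on the plus strand. Serpina3c is thus the member that is transcribed against the other 5. The gaps between neighbours were 60.673 kb (c to f), 15.115 kb (f to g), 96.546 kb (g to k), 41.422 kb (k to m) and 12.471 kb (m to n). No other annotated gene overlapped any of the 6 on either strand, which bears on V4, where strand is not kept.

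The scored stretch of coding sequence in which the paralogs were least alike is shown because it tells their reads apart plainly, and because the reactive centre loop is known to lie near this end of the protein. Windows of 75 bases were scored along the 1257 coding bases of Serpina3n where every paralog aligned over most bases. This left 344 windows, the first starting at base 154, so the bases before it were not compared. Over these windows the other 5 paralogs were identical to Serpina3n at 86.9% of bases in the median window. They were identical at 61.6% in the least alike window, bases 1123 to 1197. This window lies in the last exon of each gene, within annotated coding sequence. Its mm9 position is chr12:105651682-105651756 in Serpina3n, chr12:105385508-105385573 in Serpina3c, chr12:105458479-105458556 in Serpina3f, chr12:105479306-105479380 in Serpina3g, chr12:105583503-105583571 in Serpina3k and chr12:105632003-105632077 in Serpina3m, each read on the strand of its gene. Capitals mark bases that differ from Serpina3n or have no aligned base there.
Serpina3n: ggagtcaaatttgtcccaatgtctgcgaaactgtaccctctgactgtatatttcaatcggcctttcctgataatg
Serpina3c: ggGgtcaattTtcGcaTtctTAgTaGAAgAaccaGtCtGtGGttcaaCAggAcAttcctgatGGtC
Serpina3f: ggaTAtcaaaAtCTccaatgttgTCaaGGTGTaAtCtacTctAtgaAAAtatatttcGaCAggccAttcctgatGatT
Serpina3g: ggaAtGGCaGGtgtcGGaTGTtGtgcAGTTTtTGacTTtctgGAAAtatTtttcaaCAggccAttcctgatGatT
Serpina3k: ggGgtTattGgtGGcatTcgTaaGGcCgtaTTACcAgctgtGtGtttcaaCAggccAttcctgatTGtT
Serpina3m: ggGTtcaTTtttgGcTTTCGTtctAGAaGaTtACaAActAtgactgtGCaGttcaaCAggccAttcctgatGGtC
Identity to Serpina3n in the window ran from 57.3% for Serpina3c to 70.7% for Serpina3f.

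Over whole transcripts, the 6 paralogs were 75.9% to 90.9% identical in pairs. The closest pair was Serpina3k and Serpina3m at 90.9%, followed by Serpina3c and Serpina3m at 89.6% and Serpina3f and Serpina3g at 88.5%, while Serpina3m and Serpina3n, which are next to each other, were 81.8% identical. A read can be assigned to a paralog only where its sequence is not repeated elsewhere. Of all 125-base stretches of the annotated transcripts, the TruSeq read length, 2.94% of Serpina3k, 2.93% of Serpina3m, 0.719% of Serpina3f, 0.443% of Serpina3g and 0% of Serpina3c and Serpina3n occurred in another protein-coding transcript or elsewhere in the serpin cluster. At 150 bases, the read length of Pico and V4, the shares were 0.332% for Serpina3k, 0.331% for Serpina3m and 0% for the other 4. At 50 bases, a length below that of any read here, the shares ran from 4.85% in Serpina3c to 17.6% in Serpina3k and 19.1% in Serpina3m. How reads shared between paralogs were assigned is not given in the sources used here.

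After IL-1β, 5 of the 6 paralogs rose in every kit. Serpina3n and Serpina3f rose by 15.5- to 18.3-fold and by 12.7- to 23.6-fold, Serpina3m rose by 2.92- to 3.85-fold and Serpina3g by 2.33- to 3.99-fold, and Serpina3c rose by 2.35-fold in Pico, 7.29-fold in V4 and 14.7-fold in TruSeq. Serpina3k, the most abundant paralog, was called only in Pico, at 1.13-fold. By limma-voom with an adjusted p of at most 0.05 over all genes, 6 of 6 paralogs were called higher in Pico, against 6.78% of the 18108 genes tested, 5 of 6 in V4, against 3.60% of 18051, and 5 of 6 in TruSeq, against 12.3% of 19424. In all 3 kits at once, 5 of the 6 were called higher, against 3.05% of the 16184 genes in all 3 tables. None was called lower, against 10.8%, 7.41% and 21.8% of all genes. The CPM (the usual scaling of a gene's count by the total count of its library) of the 2 treatments did not overlap, with IL-1β higher, for 5 of the 6 in each kit, against 12.6%, 9.09% and 17.1% of all genes. The 6 had a median log2 fold change of 1.97 (Pico), 2.21 (V4) and 2.83 (TruSeq), beside -0.12, -0.22 and -0.17 over all genes. With TMM factors in place of library totals the median over all genes moved up by 0.13, 0.17 and 0.16, and the share of higher among all calls moved from 38.6% to 52.9% (Pico), from 32.7% to 49.7% (V4) and from 36.0% to 50.9% (TruSeq).

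**Figure D1:**
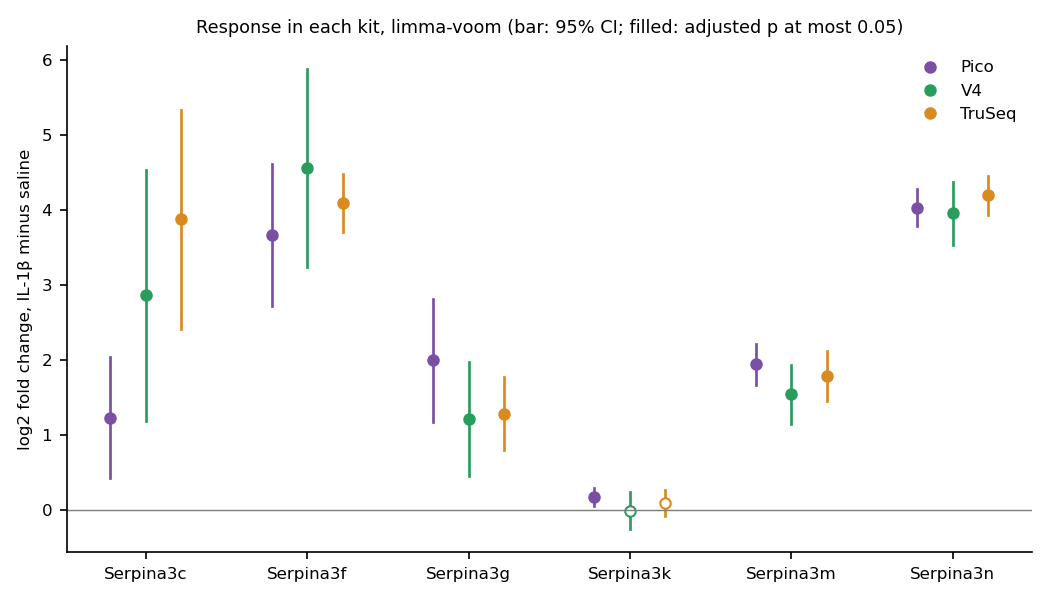
Log2 fold change of IL-1β over saline (vertical axis) of the 6 paralogs in Pico, V4 and TruSeq, from limma-voom on 3 mice per treatment, with 95% confidence intervals as bars and filled points for an adjusted p of at most 0.05. Serpina3n and Serpina3f sit between 3.67 and 4.56 in all 3 kits, Serpina3k lies near 0, and Serpina3c runs from 1.23 in Pico to 3.87 in TruSeq.

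Serpina3n had 20095, 20856 and 25101 counts in the Pico libraries of the IL-1β mice (I9579, I9582 and I9583, an order kept for all counts below) and 1523, 1173 and 1420 in those of the saline mice (U9574, U9575 and U9576). In V4 the counts were 36472, 43423 and 52803 after IL-1β and 3506, 2854 and 2274 after saline. TruSeq gave 88849, 89994 and 108089 after IL-1β and 6021, 4808 and 5328 after saline. The lowest IL-1β library was thus far above the highest saline library in each kit, and mouse I9583 was the highest of the IL-1β mice in all 3. The log2 fold change was 4.03 ± 0.12 (SE, limma-voom adjusted p = 9.82e-13) in Pico, 3.95 ± 0.19 (adjusted p = 8.6e-07) in V4 and 4.19 ± 0.11 (adjusted p = 5.8e-08) in TruSeq. Relative to the median of all genes these were 4.15, 4.18 and 4.37. Among all genes tested, Serpina3n ranked 64 by rise in Pico, 104 in V4 and 65 in TruSeq.

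Serpina3f, a paralog that is hardly counted in saline liver, rose by about as much on the log2 scale. Its Pico counts were 136, 137 and 153 after IL-1β and 23, 8 and 7 after saline. The V4 counts were 317, 511 and 472 after IL-1β and 25, 31 and 7 after saline. The TruSeq counts were 567, 585 and 535 after IL-1β and 39, 32 and 30 after saline. No saline library reached an IL-1β library of the same kit, and the IL-1β mice lay closest together in TruSeq (a coefficient of variation of 4.71% in CPM) and in Pico (6.68%). The log2 fold change was 3.67 ± 0.45 in Pico (limma-voom adjusted p = 2.28e-05), 4.56 ± 0.60 in V4 (adjusted p = 0.00104) and 4.09 ± 0.17 in TruSeq (adjusted p = 7.34e-07). The SE of the log2 fold change was largest in V4, at 0.60.

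Serpina3m, next to Serpina3n on the chromosome, rose by a smaller factor from a high level. It had 3443, 3945 and 4388 counts after IL-1β and 856, 1005 and 1285 after saline in Pico. It had 11724, 15210 and 16626 after IL-1β and 3911, 5188 and 5919 after saline in V4. In TruSeq the libraries held 15438, 18473 and 18751 counts after IL-1β and 4206, 5106 and 6583 after saline. The treatments did not overlap, and the order of the mice was the same in all 3 kits, with I9579 lowest and I9583 highest after IL-1β and with U9574 lowest and U9576 highest after saline. The log2 fold change was 1.94 ± 0.13 in Pico (limma-voom adjusted p = 2.39e-08), 1.55 ± 0.18 in V4 (adjusted p = 0.000434) and 1.79 ± 0.15 in TruSeq (adjusted p = 2.96e-05). The highest IL-1β count over the lowest was 1.21 in TruSeq to 1.42 in V4, so the rise exceeded the spread between mice in each kit.

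Serpina3g, the cathepsin inhibitor of immune cells, rose in each kit from low counts. The Pico libraries held 75, 79 and 65 counts after IL-1β and 33, 13 and 14 after saline. The V4 libraries held 220, 141 and 158 after IL-1β and 93, 53 and 79 after saline. The TruSeq libraries held 187, 161 and 153 after IL-1β and 101, 62 and 55 after saline. Saline mouse U9574 was the highest of its group in all 3 kits and still below every IL-1β library of the same kit. The log2 fold change was 1.998 ± 0.39 in Pico (limma-voom adjusted p = 0.00162), 1.22 ± 0.34 in V4 (adjusted p = 0.045) and 1.29 ± 0.22 in TruSeq (adjusted p = 0.00147). The V4 call was lost when any 1 of the 6 mice was left out (adjusted p from 0.0669 to 0.165), with a log2 fold change between 0.995 and 1.40.

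Markers of neutrophils, a cell type that enters inflamed liver, were mostly higher after IL-1β, as were Serpina3g and the other paralogs except Serpina3k. Of 9 neutrophil genes, 6 of the 6 tested were called higher in Pico (6.78% of all genes), 5 of 7 in V4 (3.6%) and 6 of 8 in TruSeq (12.3%). Their summed level was 38.6 to 48.9 CPM after IL-1β and 0.971 to 5.14 after saline in Pico, 42.4 to 80.5 and 2.15 to 5.24 in V4, and 45.5 to 89.2 and 3.36 to 6.08 in TruSeq. Mpo was listed in none of the tables, Ly6g only in that of TruSeq, and Camp only in those of V4 and TruSeq. Of 9 T and NK cell genes, 1 was called higher in Pico and 1 lower in TruSeq, and their summed level was 1.98 to 6.68 CPM after IL-1β and 3.18 to 4.37 after saline in Pico, 2.16 to 6.05 and 2.98 to 7.04 in V4, and 2.18 to 2.59 and 4.12 to 4.45 in TruSeq. The part of such cells in the rise of Serpina3g was not tested, and in whole liver a change in the number of cells of a type cannot be told apart from a change in the RNA of each cell.

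Serpina3c was the paralog whose rise varied most between kits. In Pico it had 51, 43 and 83 counts after IL-1β and 32, 25 and 18 after saline. In V4 it had 81, 229 and 248 after IL-1β and 28, 8 and 49 after saline. In TruSeq it had 104, 182 and 336 after IL-1β and 12, 11 and 15 after saline. The treatments did not overlap in any kit, although the V4 saline mice spanned 6.12-fold in counts and the TruSeq IL-1β mice 3.23-fold. The log2 fold change was 1.23 ± 0.38 in Pico (limma-voom adjusted p = 0.0331), 2.87 ± 0.76 in V4 (adjusted p = 0.0344) and 3.87 ± 0.65 in TruSeq (adjusted p = 0.0015). In TruSeq it stayed called without any 1 mouse (adjusted p from 0.00118 to 0.029). In Pico the call was lost without any 1 of the 6 mice (adjusted p from 0.0536 to 0.144, log2 fold change from 0.96 to 1.43). In V4 it was lost without I9582, I9583, U9574, U9575 or U9576 (adjusted p from 0.0917 to 0.143) and kept without I9579 (adjusted p = 0.00982).

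The mean level of Serpina3c after IL-1β was 14.6 ± 5.2 CPM (SD, n = 3) in Pico, 15.4 ± 7.6 in V4 and 16.7 ± 9.5 in TruSeq, whereas after saline it was 6.09 ± 1.74, 2.32 ± 1.65 and 0.991 ± 0.158. The kits thus differed in the saline libraries and hardly in the IL-1β libraries, although the tables were scaled separately, so a level set across kits is a comparison of tables. The difference in response between Pico and TruSeq was -2.64 ± 0.84 on the log2 scale (95% confidence interval -4.42 to -0.87), with an unadjusted p of 0.00595 and an adjusted p of 0.90 from the limma-voom interaction of kit and treatment. Over the alternatives its adjusted p ran from 0.032 to 0.9995, and only DESeq2 called it (-2.83, adjusted p = 0.032). With the mouse as a replicate block it was -2.76 (adjusted p = 0.394).

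No paralog differed in response between any pair of kits by limma-voom or by edgeR at an adjusted p of at most 0.05, and 0% of all genes did by limma-voom (0 of 17207 for Pico and TruSeq, 0 of 17147 for V4 and TruSeq, and 0 of 16395 for Pico and V4). At an unadjusted limma-voom p under 0.05 there were 945 (5.49%), 1090 (6.36%) and 900 (5.49%) genes. This is near the share such a cut gives where no gene differs and all libraries are independent. The libraries of the same mouse were not paired in this fit, so the shares do not show that no gene differed. Serpina3c in Pico and TruSeq was the single paralog among these genes. DESeq2 called 4, 72 and 17 genes. For the paralogs with high counts the intervals of the difference were narrower than for those with low counts. For Serpina3n the difference between Pico and TruSeq was -0.16 (95% confidence interval -0.53 to 0.20), that between V4 and TruSeq -0.24 (-0.75 to 0.27) and that between Pico and V4 0.08 (-0.45 to 0.61). For Serpina3m the differences were 0.15 (-0.30 to 0.60), -0.24 (-0.78 to 0.29) and 0.40 (-0.14 to 0.93). For Serpina3f, with low saline counts, a difference of up to 1.78 between V4 and TruSeq lay within the interval. Kit, amount of RNA and sequencing run changed together, and read length also changed between TruSeq and the other kits. Their parts in these differences cannot be told apart. The study credits its TruSeq libraries to earlier work, sequenced on another HiSeq model than Pico and V4.

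Serpina3k, the kallikrein-binding inhibitor, was the exception among the 6. Its Pico counts were 32590, 29941 and 35242 after IL-1β and 28860, 28036 and 31297 after saline. Its V4 counts were 183840, 184367 and 223178 after IL-1β and 210429, 212228 and 173424 after saline. Its TruSeq counts were 192439, 177372 and 203083 after IL-1β and 181489, 179768 and 190057 after saline. The treatments overlapped in every kit. The log2 fold change was 0.17 ± 0.06 in Pico (limma-voom adjusted p = 0.0437), -0.00 ± 0.11 in V4 (adjusted p = 0.992) and 0.10 ± 0.08 in TruSeq (adjusted p = 0.402), with 95% confidence intervals of 0.05 to 0.29, -0.25 to 0.24 and -0.08 to 0.27. The Pico call was lost without any 1 mouse (adjusted p from 0.0526 to 0.242), with the filter on low counts (0.0854) and in 1 fit of all 18 libraries (0.439). It was kept at a larger size with TMM factors (0.31, adjusted p = 0.00219), by edgeR (0.31, adjusted p = 0.0121) and by DESeq2 (0.30, adjusted p = 0.0221). In TruSeq the gene was called higher with TMM factors (0.25, adjusted p = 0.0396) and by DESeq2 (0.26, adjusted p = 0.0457), and over the alternatives of TruSeq the adjusted p ran from 0.0396 to 0.617. In V4 the direction turned to 0.16 with TMM factors. Relative to the median of all genes, the change of Serpina3k was 0.29, 0.22 and 0.27, so any rise was small beside those of its neighbours.

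**Figure D2:**
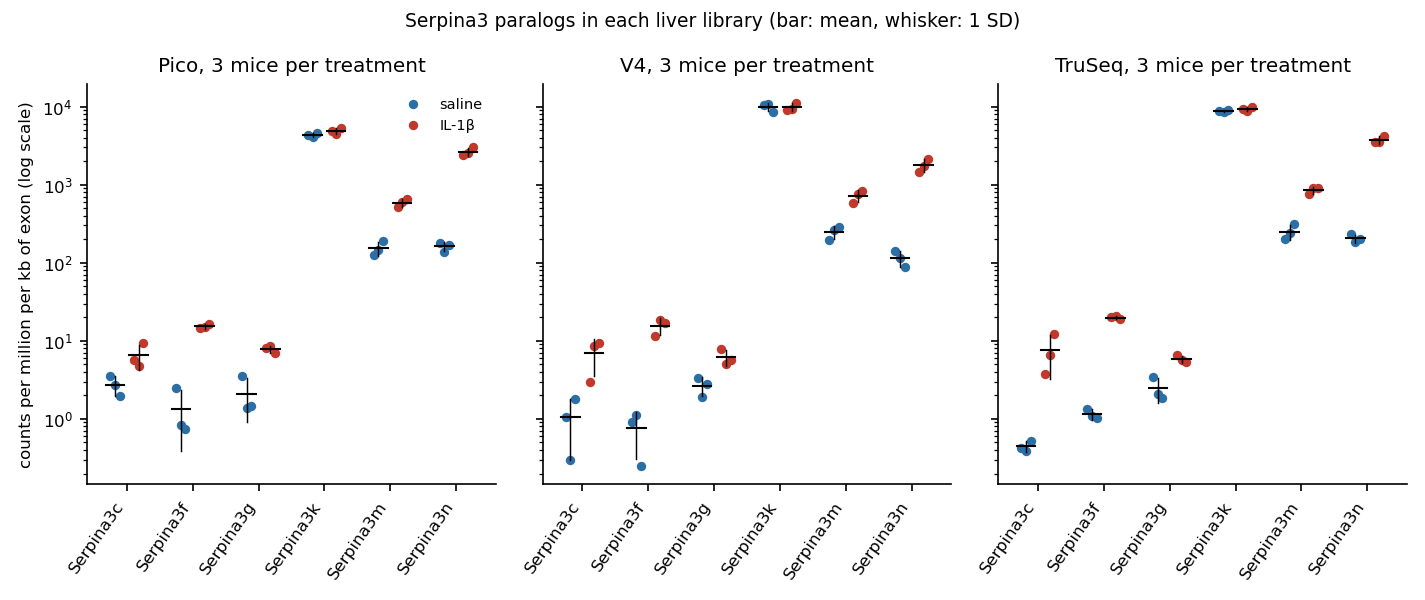
CPM per kilobase of exon (vertical axis, log scale) of the 6 paralogs in each library of Pico, V4 and TruSeq, with 3 saline mice in blue and 3 IL-1β mice in red, the mean as a horizontal bar and 1 SD as a whisker. Serpina3k stays at the top in both treatments, while Serpina3n lies at or below the level of Serpina3m after saline in V4 and TruSeq and is in second place in every kit after IL-1β.

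Levels of different paralogs were compared per kilobase of exon, since exon length ran from 1654 bases in Serpina3k to 2306 in Serpina3g. Serpina3k was the highest in every library, at 4322 ± 235 CPM per kilobase after saline and 4881 ± 389 after IL-1β in Pico, with 9897 ± 1220 and 9855 ± 1160 for V4 and 8700 ± 224 and 9315 ± 608 for TruSeq (SD, n = 3 mice). After saline, Serpina3m and Serpina3n came next. Serpina3m was at 154 ± 31, 248 ± 47 and 250 ± 55 in Pico, V4 and TruSeq, and Serpina3n at 162 ± 22, 115 ± 26 and 204 ± 24. The ranges of these 2 paralogs overlapped in Pico and TruSeq and were apart in V4. After IL-1β their order was clear in every kit, with Serpina3n at 2643 ± 323, 1773 ± 336 and 3739 ± 419 and Serpina3m at 586 ± 71, 724 ± 129 and 854 ± 91.

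The other 3 paralogs stood well below these. After IL-1β, Serpina3f was the fourth in each kit, at 15.4 ± 1.0, 15.7 ± 3.8 and 19.8 ± 0.9 CPM per kilobase, and its range did not overlap that of the next paralog. Serpina3g was at 7.84 ± 0.79, 6.20 ± 1.45 and 5.84 ± 0.61, and Serpina3c at 6.60 ± 2.36, 6.96 ± 3.44 and 7.56 ± 4.30, with overlapping ranges in all 3 kits. After saline their order depended on the kit. Serpina3c was the highest of the 3 in Pico at 2.75 ± 0.79 and the lowest in TruSeq at 0.448 ± 0.071, and in Pico the ranges of all 3 neighbours in the order overlapped. Serpina3g led in V4 at 2.68 ± 0.73 and in TruSeq at 2.47 ± 0.87, apart from the next paralog in both.

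Summed over the 6 paralogs, the counts made up 0.775% ± 0.045 of a Pico library after saline and 1.46% ± 0.13 after IL-1β, 1.70% ± 0.20 and 2.12% ± 0.28 of a V4 library, and 1.52% ± 0.04 and 2.46% ± 0.18 of a TruSeq library (SD, n = 3 mice). The make-up of this sum shifted from Serpina3k to Serpina3n. Serpina3k supplied 92.2% ± 0.4 of the summed counts after saline in Pico and 55.5% ± 2.0 after IL-1β, 96.1% ± 0.6 and 76.9% ± 1.9 in V4, and 94.5% ± 0.4 and 62.6% ± 1.8 in TruSeq. Serpina3n supplied 4.30% ± 0.51 after saline and 37.4% ± 1.6 after IL-1β in Pico, with 1.38% ± 0.19 and 17.2% ± 1.3 in V4 and 2.77% ± 0.32 and 31.3% ± 1.4 in TruSeq. Serpina3m went from 3.28% ± 0.52 to 6.68% ± 0.54, from 2.47% ± 0.74 to 5.65% ± 0.60 and from 2.71% ± 0.53 to 5.77% ± 0.63. Serpina3c, Serpina3f and Serpina3g each stayed under 1% of the sum, with the highest mean that of Serpina3f after IL-1β in Pico at 0.242%. The share of Serpina3k was lower after IL-1β in every kit while its own mean level differed by at most 1.13-fold, as the added counts of Serpina3n and Serpina3m entered the sum.

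**Figure D3:**
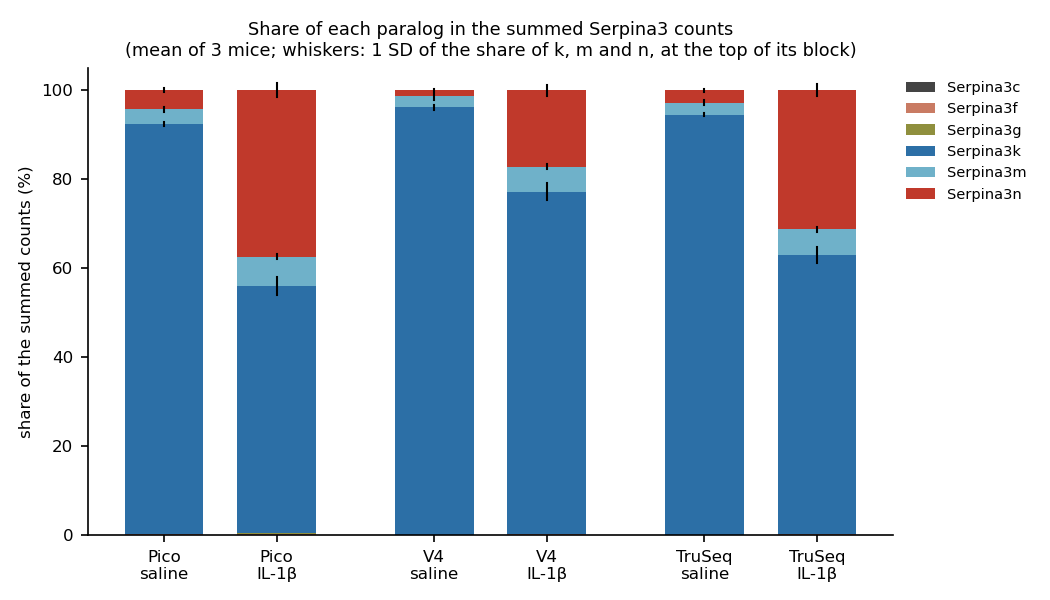
Mean share (vertical axis, percent) of each paralog in the summed counts of the 6 paralogs for each kit and treatment, with 3 mice per bar and 1 SD of the share as whiskers for Serpina3k, Serpina3m and Serpina3n. The block of Serpina3n grows from 4.30%, 1.38% and 2.77% after saline to 37.4%, 17.2% and 31.3% after IL-1β in Pico, V4 and TruSeq.

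Neighbouring paralogs were compared by the log2 ratio of their counts in the same library, with 0.5 counts added, which does not depend on the library total. Of the 15 comparisons (5 neighbour pairs in 3 kits), the ratio did not overlap between treatments in 13. The share over other gene pairs was not computed. The ratios are built from the counts of the paralogs called above, and each kit holds the same 6 mice, so the 13 are not separate support. With 3 mice against 3, the exact permutation test cannot go below p = 0.1, and these 13 all had this smallest p (two-sided; 0.115 after Benjamini-Hochberg adjustment over the 15), so no ratio could pass 0.05 whatever its size.

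The closest pair on the chromosome was Serpina3m and Serpina3n. In TruSeq the log2 ratio of Serpina3m to Serpina3n was -2.52, -2.28 and -2.53 after IL-1β and -0.52, 0.09 and 0.31 after saline. In Pico it was -2.54, -2.40 and -2.52 after IL-1β and -0.83, -0.22 and -0.14 after saline. In V4 it was -1.64, -1.51 and -1.67 after IL-1β and 0.16, 0.86 and 1.38 after saline. The ratio was nearly the same in the 3 IL-1β mice (SD from 0.08 to 0.14) and more spread in the saline mice (SD from 0.38 to 0.61). The mean fell by 2.09 (Pico), 2.41 (V4) and 2.40 (TruSeq), without overlap.

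Serpina3k and Serpina3m, the pair of nearest sequence, came closer together in counts. The mean log2 ratio of Serpina3k to Serpina3m was 4.83 ± 0.24 after saline and 3.06 ± 0.17 after IL-1β in Pico, with 5.33 ± 0.44 and 3.77 ± 0.19 for V4 and 5.14 ± 0.29 and 3.45 ± 0.19 for TruSeq. This is a fall by 1.77, 1.55 and 1.69, without overlap. Serpina3f and Serpina3g, the second closest pair in position, changed places. Their ratio was -0.71 ± 0.22 after saline and 0.96 ± 0.24 after IL-1β in Pico, with -2.01 ± 1.33 and 1.32 ± 0.70 in V4 and -1.06 ± 0.27 and 1.75 ± 0.14 in TruSeq. Serpina3g thus had more counts than Serpina3f in all 9 saline libraries and fewer in all 9 IL-1β libraries.

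Serpina3g and Serpina3k, with 3 further family genes between them, kept a large gap that narrowed by 1.82 (Pico), 1.22 (V4) and 1.19 (TruSeq), without overlap. No test compared a ratio between kits. The ratio of Serpina3c to Serpina3f was the single ratio that overlapped between treatments in any kit. It was 1.12 ± 0.58 after saline and -1.31 ± 0.40 after IL-1β in Pico, where the treatments did not overlap. In V4 it was 0.33 ± 2.31 and -1.35 ± 0.54 (exact permutation p = 0.3), and in TruSeq -1.38 ± 0.36 and -1.60 ± 0.89 (exact permutation p = 0.8), with overlapping treatments in both. The TruSeq difference of -0.22 turned to 0.20 without mouse I9579.

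**Figure D4:**
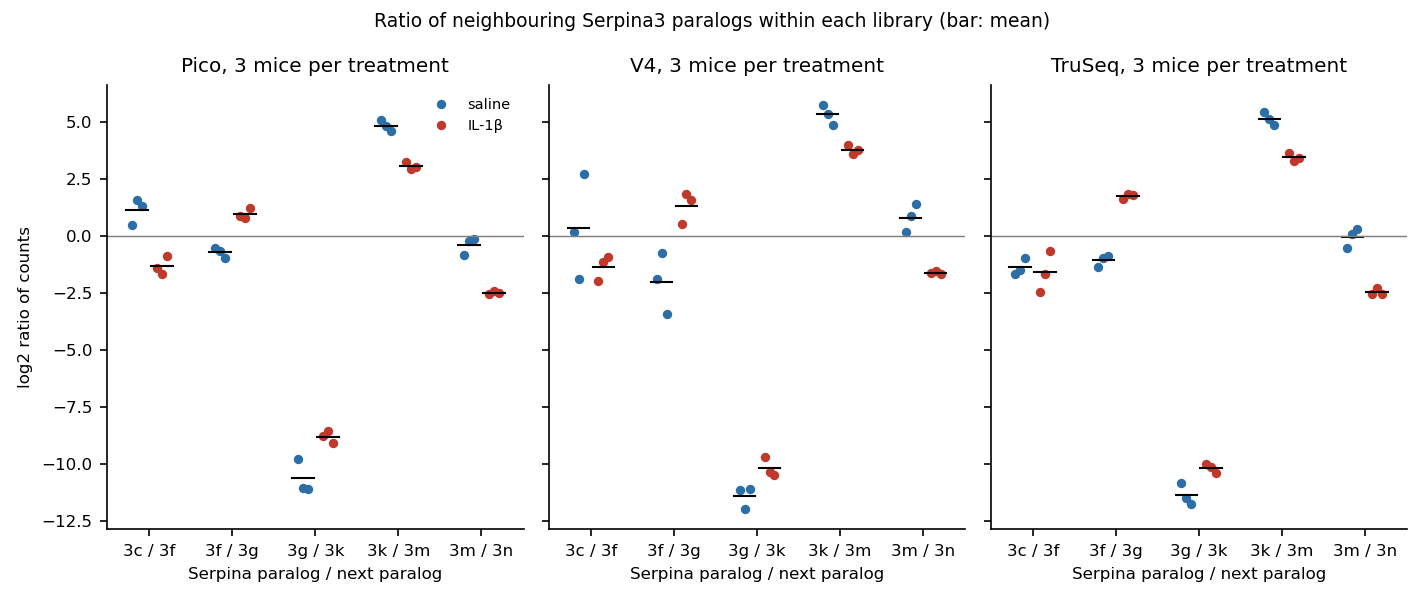
Log2 ratio of the counts (vertical axis) of each paralog to the next along the chromosome, by library, with saline mice in blue, IL-1β mice in red and the mean as a bar. In each kit the ratios of 3m to 3n and of 3k to 3m lie lower and those of 3f to 3g and 3g to 3k lie higher after IL-1β, while 3c to 3f separates the treatments in Pico and overlaps in V4 and TruSeq.

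Promoter sequences are shown for the paralogs with an entry in the RefSeq table used (build GRCm38.p6), since Serpina3n and Serpina3f rose together and Serpina3g, next to Serpina3f, rose less. Serpina3c, Serpina3f, Serpina3g and Serpina3n had entries, and Serpina3k and Serpina3m did not. The 250 bases before the annotated start are chr12:104406458-104406707 for Serpina3n, chr12:104153873-104154122 on the minus strand for Serpina3c, chr12:104214294-104214543 for the first entry of Serpina3f and chr12:104235897-104236146 for Serpina3g. Capitals mark matches, on either strand, to binding motifs of factors of the acute-phase and glucocorticoid responses: TTCNNNGAA for STAT proteins, TTGCNNAA for C/EBP proteins, ACANNNTGT for the glucocorticoid receptor, a pair of GAAA parted by NN for interferon regulatory factors and the NF-kappaB consensus.
Serpina3n: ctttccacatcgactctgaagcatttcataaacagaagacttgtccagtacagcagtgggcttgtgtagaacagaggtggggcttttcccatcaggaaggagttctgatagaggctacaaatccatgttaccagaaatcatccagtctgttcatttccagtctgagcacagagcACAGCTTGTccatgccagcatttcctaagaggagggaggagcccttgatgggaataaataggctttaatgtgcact
Serpina3c: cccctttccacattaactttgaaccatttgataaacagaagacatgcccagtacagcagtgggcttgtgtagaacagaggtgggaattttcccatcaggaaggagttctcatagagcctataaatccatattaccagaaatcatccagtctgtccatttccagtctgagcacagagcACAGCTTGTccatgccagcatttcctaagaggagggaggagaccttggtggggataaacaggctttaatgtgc
Serpina3f: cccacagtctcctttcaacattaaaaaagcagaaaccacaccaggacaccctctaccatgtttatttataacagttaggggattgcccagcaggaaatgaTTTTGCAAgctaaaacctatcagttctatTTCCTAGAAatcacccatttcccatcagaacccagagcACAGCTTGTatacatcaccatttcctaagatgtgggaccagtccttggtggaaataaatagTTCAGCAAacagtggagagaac
Serpina3g: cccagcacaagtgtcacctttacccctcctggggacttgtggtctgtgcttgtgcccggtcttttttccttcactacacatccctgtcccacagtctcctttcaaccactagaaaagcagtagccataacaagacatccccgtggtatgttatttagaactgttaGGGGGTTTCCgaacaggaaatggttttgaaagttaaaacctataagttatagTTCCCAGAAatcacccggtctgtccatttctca
The upstream bases of Serpina3f and Serpina3g were 82.6% identical over 161 aligned bases. Those of Serpina3n and Serpina3f were 69.0% identical over 232, and those of Serpina3g and Serpina3n, the least alike, 58.0% over 205. Serpina3n and Serpina3c were the most alike, at 92.7% over 247. Beside this, the log2 fold changes of Serpina3n and Serpina3c were 4.03 and 1.23 for Pico, against 3.95 and 2.87 for V4 and 4.19 and 3.87 for TruSeq. The same 9 letters that match the glucocorticoid receptor motif stood 76 to 68 bases before the start in Serpina3n and 73 to 65 before it in Serpina3c. In Serpina3f they stood 83 to 75 bases before the start of the first entry and 172 to 164 before that of the second. The motif occurred in 6.85% of 32851 promoter windows. The STAT motif was matched in Serpina3f and Serpina3g (8.30% of windows), the C/EBP motif at 2 places in Serpina3f (10.8%) and the NF-kappaB consensus in Serpina3g (8.46%). The STAT match stood 121 to 113 bases before the start in the first entry of Serpina3f and 33 to 25 before it in Serpina3g. The windows of these genes thus do not begin at matching places. The interferon regulatory factor motif was matched in none of the 4 (3.44%). A match describes letters and not a bound site.

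The other serpins of clade A, most of them in the same cluster, give the surroundings. Of 20 other clade A genes fixed as a list with earlier results known, 18 were tested in Pico, with 3 called higher and 6 lower, 17 in V4, with 3 higher and 4 lower, and 18 in TruSeq, with 6 higher and 6 lower. Their median log2 fold change was 0.32, -0.32 and 0.09. Serpina10 (an inhibitor of coagulation factor Xa), Serpina7 (thyroxine-binding globulin) and Serpina3i were called higher in all 3 kits, and Serpina1a, Serpina1b and Serpina1d (alpha-1-antitrypsin genes) and Serpina6 (corticosteroid-binding globulin) lower in all 3. Serpina3i, which lies between Serpina3g and Serpina3k, had 37, 45 and 26 counts after IL-1β and 1, 0 and 0 after saline in Pico. In V4 it had 77, 34 and 69 against 1, 17 and 9, and in TruSeq 115, 117 and 129 against 3, 0 and 1. Serpina3k thus lay between Serpina3i and Serpina3m, both called higher, though neither is its nearest annotated family gene. Serpina3j, between Serpina3i and Serpina3k, had at most 6 counts over the 6 libraries of a kit and was called in none. Serpina3l-ps, a pseudogene between Serpina3k and Serpina3m, was not on the list.

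**Figure D5:**
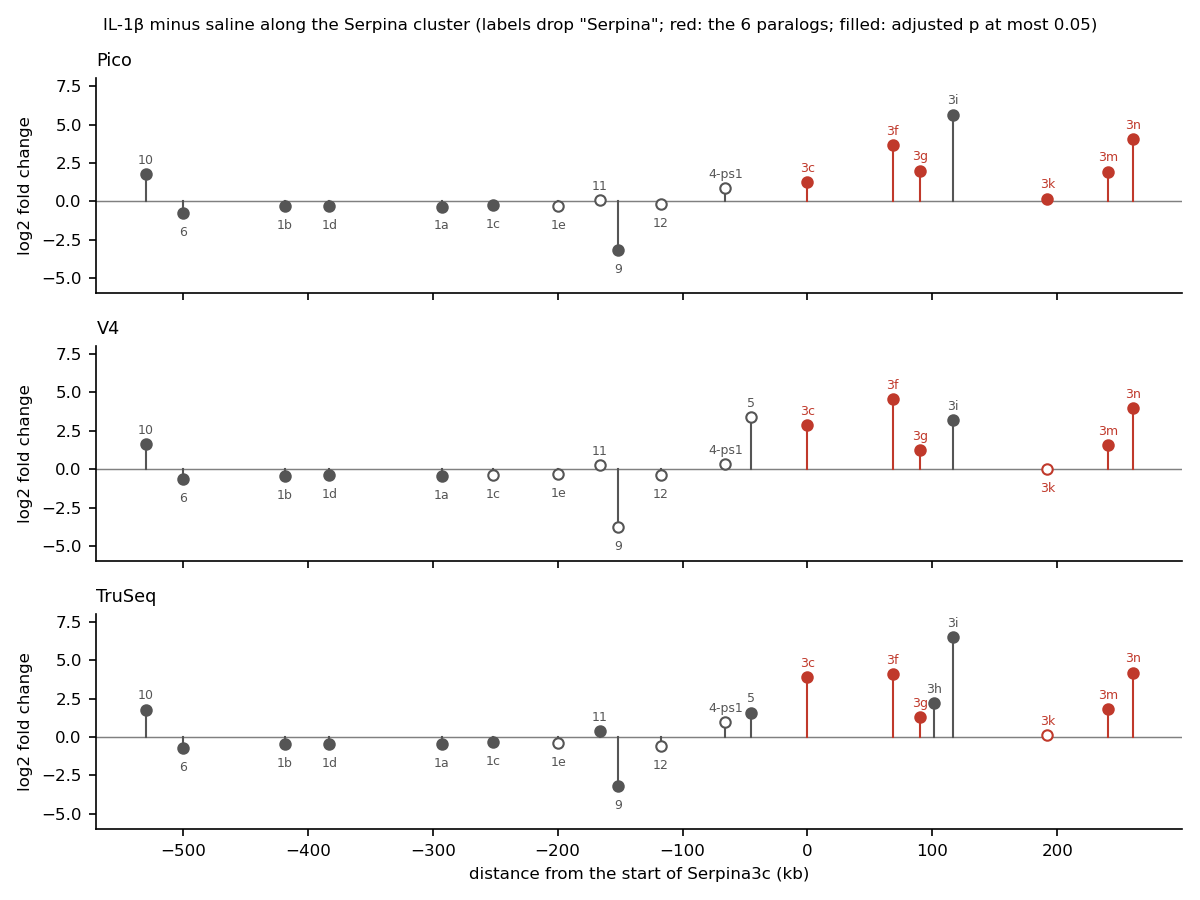
Log2 fold change of IL-1β over saline (vertical axis) against the distance in kb from the start of Serpina3c for clade A genes whose mean reached 10 counts in a treatment, the 6 paralogs in red and filled points for an adjusted p of at most 0.05 (20 genes for TruSeq, 19 for V4 and 18 for Pico). The rises of Serpina3c, Serpina3f, Serpina3g, Serpina3m and Serpina3n lie on both sides of Serpina3k, which stays near 0.

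Candidate target proteases of serpins were read from a list of 18. Whether the paralogs inhibit each of them was not tested. Of the 18 proteases, 12 were tested in Pico, 14 in V4 and 13 in TruSeq. Ctsl (cathepsin L) was called higher in all 3 kits, with log2 fold changes of 0.87, 0.80 and 0.92, and was the single gene of the list called higher in any of them. Klkb1 (plasma kallikrein) fell by 0.93, 0.97 and 1.14, and Ctsh (cathepsin H) by 0.43, 0.50 and 0.50. Klk1 (a tissue kallikrein) and Gzmb (granzyme B) were called in no kit, with at most 5 and 7 counts in a library. The median over the tested genes was -0.09, -0.50 and -0.43. Ctsg, Mcpt4 and Tpsab1, proteases of neutrophils and mast cells, were listed in none of the tables, and Elane (neutrophil elastase) had at most 5 counts over the 6 libraries of a kit.

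The genes whose pattern over the 18 libraries was most like that of each paralog were found by the root mean square difference of log2(CPM + 1), centred within each kit, over 10432 genes. For Serpina3n these were Gm10309 (0.22) and Orm2 (0.23), and for Serpina3f D10Wsu102e (0.28) and Serpina3n itself (0.38). For Serpina3m they were Mrap (0.15) and Nrg4 (0.21), for Serpina3g Zbp1 (0.24) and Asap2 (0.27), for Serpina3c Lrg1 (0.45) and Amigo2 (0.56), and for Serpina3k Cops3 (0.06) and Kng2 (0.07). Gm10309 rose more than Serpina3n, with log2 fold changes of 7.55 (Pico), 8.27 (V4) and 6.15 (TruSeq). Adding 1 to the CPM shrinks the changes of genes with low levels, so a near pattern here can hold unlike log2 fold changes. Between paralogs the smallest difference was 0.38, for Serpina3f and Serpina3n, and the largest 1.99, for Serpina3k and Serpina3n. Serpina3m and Serpina3n, which are neighbours, were 1.19 apart, and Serpina3f and Serpina3g, also neighbours, 1.21 apart.

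The tissue label was checked with markers of liver cell types. All 6 hepatocyte genes were counted in every kit and their summed level was 54439 to 61295 CPM after IL-1β and 61356 to 73055 after saline in Pico, 55075 to 62603 and 57019 to 66988 in V4, and 75319 to 82573 and 94486 to 110665 in TruSeq. Kupffer cell genes summed to 44.2 to 113 CPM after IL-1β and 89.5 to 182 after saline over the 3 kits, endothelial genes to 44.2 to 279 and 77.3 to 355, stellate cell genes to 157 to 291 and 228 to 369, and B cell genes to 0 to 1.48 and 1.57 to 4.41. No list other than that of neutrophils had most of its tested genes called higher. The summed hepatocyte level was thus lower after IL-1β without overlap in Pico and TruSeq and with overlap in V4, beside the higher levels of 5 of the 6 paralogs, and Fgb (fibrinogen beta chain) was the single hepatocyte gene called higher in all 3 kits.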

How the data were processed

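The deposited values were read counts per gene. The authors aligned the reads to mm9 with GSNAP, normalized them by resampling reads (PORT), and counted reads that followed annotated exon junctions; no molecular identifiers were used, and the kits were normalized apart. Each kit was fitted alone by limma-voom (R 4.3.3 with limma 3.58.1) on the counts with library totals, over every listed gene (18108 in Pico, 18051 in V4 and 19424 in TruSeq, all with at least 1 count), with Benjamini-Hochberg adjustment and a call at an adjusted p of at most 0.05. Differences in response were fitted on the 12 libraries of both kits with a kit by treatment interaction. Ratios of neighbours, in the order of the genes along the chromosome, were tested with a two-sided exact permutation test over mice. Alternatives were TMM factors in voom, edgeR 4.0.16, DESeq2 1.42.0, a minimum of 10 counts in 3 libraries, all 18 libraries in 1 fit, fits without 1 of the mice, fits blocked by mouse, 5 or 20 counts added to ratios, and shares per kilobase. The fits were tested on simulated data. Summaries used Python 3.11.15, numpy 2.4.6, pandas 2.3.3, scipy 1.17.1, matplotlib 3.10.9 and biopython 1.88. Exon lengths, positions and transcripts came from GENCODE vM1 on mm9, and promoters from RefSeq.

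The named genes are the 6 paralogs, the genes of the clade A and protease lists called in the same direction in all 3 kits, and the 2 genes most like each paralog in pattern (among genes averaging 10 counts or more in every kit). Serpina3i, Serpina3j, Serpina3l-ps, Klk1, Gzmb, Elane, Fgb and the markers not listed in a table were named after their values were seen where they fall outside this. The paralogs, the lists and the motifs were chosen with earlier results of these data known. A Pico library held 4024632 to 4134070 counts and the others 12013453 to 12858237. The SE of each fold change gives its precision. Replicates are separate mice, and no 2 libraries of a treatment agreed within sampling noise (chi-square over degrees of freedom at least 7.04). The mouse number pairs the libraries of different kits, because RNA of the same animal was split: deviations from the group means correlated at 0.0718 to 0.439 for the same mouse and -0.351 to -0.0295 for different mice. With deviations centred on the mean of 3 mice, positive values for the same mouse force negative ones for different mice on average. The negative range is thus not separate support for the pairing. No column was left out of the tables.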

Additional observations from a re-analysis of the deposited data

How the results depend on the processing

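Serpina3f, Serpina3m and Serpina3n kept their call and direction in each kit under every alternative run, as did Serpina3g in Pico and TruSeq and Serpina3c in TruSeq. The calls lost without any 1 of the 6 mice were those of Serpina3c in Pico, Serpina3g in V4 and Serpina3k in Pico, and that of Serpina3c in V4 was kept without I9579 and lost without each of the other 5. In V4 the number of paralogs called fell from 5 to between 3 and 4 when a mouse was left out, with 3 called without I9582, I9583, U9574, U9575 or U9576. In 1 fit of all 18 libraries Serpina3c was not called in Pico (adjusted p = 0.339). For Serpina3k in V4, at -0.00, the sign turned with TMM factors (0.16), edgeR (0.16), DESeq2 (0.17) and without I9579 (0.0476), I9582 (0.0386), U9574 (0.0484) or U9575 (0.0499), with a range of -0.11 to 0.0499 over the mice left out, and none of these was called. In the differences of response, DESeq2 called 1 paralog, Serpina3c, in Pico against TruSeq, and gave it no adjusted p in Pico against V4. The sign of uncalled differences turned for Serpina3f in V4 against TruSeq without U9576 (-0.11, with a range up to 0.90), for Serpina3g in V4 against TruSeq with DESeq2 (0.0162) and without I9582 (0.0441) or U9576 (0.16, with a range down to -0.20), and for Serpina3n in Pico against V4 with TMM factors (-0.0037) and without U9575 (-0.0418, with a range up to 0.27). The cause was not tested. Of the neighbour ratios, that of Serpina3c to Serpina3f in TruSeq ran from -0.68 to 0.20 when a mouse was left out. With 5 or 20 counts added no neighbour difference changed sign.

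With the mouse as a replicate block, 0 paralogs differed in response in each of the 3 pairs of kits, as without it, and no call of a paralog changed. Within a kit no paired analysis was possible because the treatments were given to different mice.

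Shares per kilobase of exon were higher for Serpina3k (in Pico 60.0% with IL-1β and 93.1% with saline, 79.7% after IL-1β in V4, 66.8% and 95.002% in TruSeq) and lower for Serpina3n (32.4% and 3.48% in Pico, 14.3% and 1.11% in V4, 26.8% and 2.23% in TruSeq), since Serpina3n has the longer exons. With 3 mice a treatment the exact test of a ratio cannot pass 0.05, and Serpina3c, Serpina3f and Serpina3g rest on 7 to 101 counts in a saline library.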
